A study of Mus musculus with 6 samples.

Results

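Olfactory sensory neurons must carry odorant receptors out of the endoplasmic reticulum (ER), through the Golgi apparatus and into the cilia, and 9 genes linked to that route are described here. They were taken by name: Rtp1, Rtp2, Gfy and Reep1 to Reep6, 9 of the 55341 genes counted. Odorant receptors are known to stay in the ER when made in most other cell types. Rtp1 and Rtp2 encode membrane proteins that bring them to the cell surface, and mice without both genes are known to have poor receptor transport. Gfy encodes goofy, a Golgi membrane protein of olfactory neurons, and mice without it are known to misplace the adenylyl cyclase of the cilia. Reep proteins insert hairpins into the ER membrane and shape its tubules, and Reep1 was first linked to odorant receptors in a screen done in cultured human cells.

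RNA was measured in 6 single olfactory sensory neurons of wild type C57BL/6 mice aged 6 weeks, each taken from the olfactory epithelium and frozen after a physiological recording. No treatment and no animal is named, so the cells form 1 group and the number of mice is unknown. Each neuron gave 1 CEL-Seq2 library, called cells 1 to 6 after the labels OSN1 to OSN6. Differences between cells therefore have no replicate check, and each value is given with its counting error.

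Totals ran from 8613 counts in cell 1 to 122546 in cell 3. A single count was worth 116 CPM (counts scaled to 1000000 per cell) in cell 1 and 8.16 CPM in cell 3. A gene without a count can be limited only to the level of 3 counts, which is 348 CPM in cell 1, 87.0 in cell 2, 24.5 in cell 3, 49.3 in cell 4, 133 in cell 5 and 256 in cell 6. The leading receptor was Olfr740 for cells 1 and 2, Olfr741 for cells 3 and 4, and Olfr743 for cells 5 and 6. Of 7 mature olfactory neuron markers, 7 were found in each of cells 1 to 5, while cell 6 had 5 and lacked counts of the channel genes Cnga2 and Ano2. Of 5 immature neuron markers, 4 were found in some cell, with Stmn2 in all 6 cells at 464 to 1708 CPM, and Gng8 had no count. Markers of basal cells (3 genes) and microvillar cells (3 genes) had no count in any cell.

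All 9 members are annotated as protein coding in GRCm38. Rtp1 lies on chromosome 16 at 23429133 to 23433960 on the plus strand and Rtp2 on the same chromosome at 23925548 to 23932394 on the minus strand, each with 2 exons in its principal transcript. Gfy lies on chromosome 7 at 45176349 to 45179569 on the minus strand with 5 exons. Reep1 is on chromosome 6 (71707561 to 71810710), Reep3 on chromosome 10 (67009189 to 67096945) and Reep6 also on chromosome 10 (80329953 to 80336441). Reep4 is on chromosome 14 (70545251 to 70548933), and Reep5 (34344885 to 34374070) and Reep2 (34840589 to 34847463) are both on chromosome 18. The coding sequences of Rtp1 and Rtp2 were 68.6% identical in a global alignment. Within the Reep1 to Reep4 branch identity ran from 53.7% to 62.6%, Reep5 and Reep6 shared 59.4%, and identity between the branches ran from 43.4% to 46.8%.

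Nearly all members have transcript ends of their own. No 50-base window in the last 1000 bases of the coding transcripts of Rtp1, Rtp2, Gfy, Reep1, Reep2, Reep4, Reep5 or Reep6 occurred in a transcript of another gene. Reep3 was the exception, with 27.4% of its windows found, on either strand, in transcripts of 134 other genes. Among them was the antisense gene Gm31763, whose span, introns included, covers 5201 bases of the exons of the principal Reep3 transcript. The strand setting of the counting is not given in the sources used here, so reads of sequence shared by Reep3 and Gm31763 cannot be told apart. The Reep3 counts are uncertain for this reason and for the windows shared with the other genes. Gm31763 itself was listed with 2 counts for cell 3 and 1 for cell 4. The start of Reep3 also overlaps 156 bases of Jmjd1c on the opposite strand. Gm44770, which lies in an intron of Reep1 on the same strand, was counted 11 times in cell 3 and once each in cells 2 and 4. Slc17a7, which ends 206 bases from the end of Gfy on the opposite strand, had no count in any cell.

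Gfy and Rtp2 were the members counted in all 6 cells, and the 300 bases around the RefSeq start of each, from 250 before to 50 after it, are shown for that reason (GRCm38.p6). The RefSeq start of Rtp2, 23930794, is that of its principal GENCODE transcript, but a further transcript starts 1600 bases upstream at 23932394, so this window lies within the gene. The RefSeq start of Gfy, 45179597, lies just upstream of the 5′ end of the gene in GENCODE, 45179569. The Gfy sequence is chr7:45179548-45179847 and the Rtp2 sequence chr16:23930745-23931044, both printed 5′ to 3′ on the minus strand, with capitals marking a match to the core bound by Ebf transcription factors, TCCC and GGGA with any 2 bases between them.
Gfy: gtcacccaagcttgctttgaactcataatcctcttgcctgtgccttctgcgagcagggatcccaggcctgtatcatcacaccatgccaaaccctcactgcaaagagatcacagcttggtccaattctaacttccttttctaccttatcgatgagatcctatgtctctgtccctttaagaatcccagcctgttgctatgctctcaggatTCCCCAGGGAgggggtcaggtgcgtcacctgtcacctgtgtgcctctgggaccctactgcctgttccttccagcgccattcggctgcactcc
Rtp2: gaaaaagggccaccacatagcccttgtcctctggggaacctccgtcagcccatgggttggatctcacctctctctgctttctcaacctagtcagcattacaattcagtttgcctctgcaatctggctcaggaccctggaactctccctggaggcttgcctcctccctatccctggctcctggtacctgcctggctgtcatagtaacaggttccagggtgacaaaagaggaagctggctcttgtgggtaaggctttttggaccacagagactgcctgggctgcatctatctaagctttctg

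The Gfy window holds the match at bases -42 to -33 from the start. The motif is its own reverse complement, so both strands are covered, and 0.904% of the 32851 windows in the table hold such a match. The Rtp2 window and the Reep1 window have none. A second motif, the homeodomain core TAATTA, which is its own reverse complement too, was found in 5.29% of all windows and in none of these 3. A match is a description of the letters only.

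Gfy was by far the most abundant member. Its count was 35 for cell 1, 74 for cell 2, 765 for cell 3, 215 for cell 4, 58 for cell 5 and 113 for cell 6. Scaled by the total, this is 4064 CPM for cell 1 (95% Poisson interval 2830.5 to 5652), 2146 CPM for cell 2 (1685 to 2694), 6243 CPM for cell 3 (5808 to 6701), 3530.3 CPM for cell 4 (3074 to 4035), 2575 CPM for cell 5 (1955 to 3329) and 9638 CPM for cell 6 (7943 to 11587). At this scaling cell 6 stood highest and cell 2 lowest, and the intervals of cells 6 and 3 overlapped neither each other nor any other cell. Among all genes of a cell, Gfy ranked 10th in cell 6, 12th in cell 3 and 13th in cell 4, and 25th, 43rd and 29th in cells 1, 2 and 5. It held 81.3% of the counts of the 9 members pooled over cells, from 69.8% (60.1% to 78.4%, Clopper-Pearson) in cell 2 to 85.7% (80.7% to 89.7%) in cell 4.

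The order of cells for Gfy depended on how a cell's total was scaled. Scaling by effective library sizes (the trimmed mean of M-values, TMM) divides all levels of cell 6 by 1.57 and of cell 3 by 0.689. On that scale Gfy read 6125 CPM in cell 6 and 9059 CPM in cell 3, which was then the highest cell. With DESeq2 size factors the values were 5629 CPM in cell 6 and 11721 CPM in cell 3. Leaving mitochondrial genes out of the total kept cell 6 highest, with 10994 CPM in cell 6 and 6674 CPM in cell 3.

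**Figure D1:**
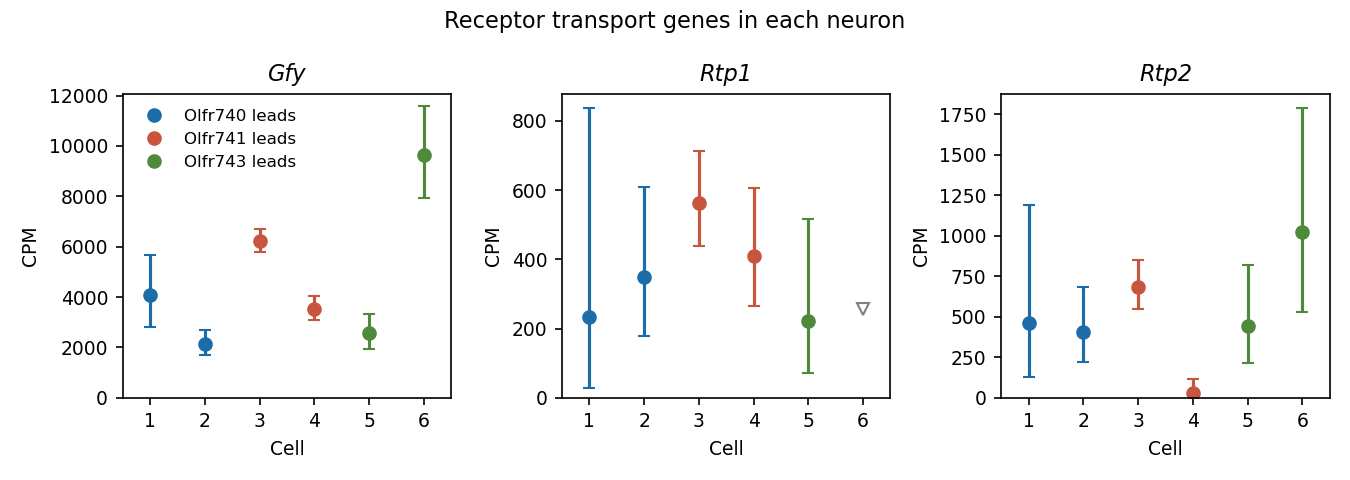
Levels of Gfy, Rtp1 and Rtp2 (CPM, linear axes that differ between panels) in cells 1 to 6; points are single cells, bars exact 95% Poisson intervals, colours the leading receptor, and an open triangle the level of 3 counts in a cell without one. Gfy is highest in cell 6 at 9638 CPM, Rtp1 has no count in cell 6, and Rtp2 is lowest in cell 4 at 32.8 CPM.

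Ratios within a cell do not use the total, and by these cell 6 was highest for Gfy. Per 100 odorant receptor counts there were 217 Gfy counts in cell 6 (95% interval 155 to 308), against 48.6 (31.5 to 73.8) in cell 1, 24.5 (18.7 to 31.7) in cell 2, 103 (92.7 to 114) in cell 3, 61.6 (51.7 to 73.2) in cell 4 and 39.5 (28.6 to 53.8) in cell 5. The interval of cell 6 lay above that of every other cell. Per 100 counts of Omp, the olfactory marker protein of mature neurons, there were 161 Gfy counts in cell 6 (119 to 221), against 50.7 in cell 1, 33.8 in cell 2, 66.1 in cell 3, 75.4 in cell 4 and 52.7 in cell 5. The upper limits in those 5 cells ran from 44.2 to 90.4, so cell 6 stood apart from all of them on this scale as well. Cell 6 had 52 receptor and 70 Omp counts, and it was the library with the second lowest total.

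**Figure D2:**
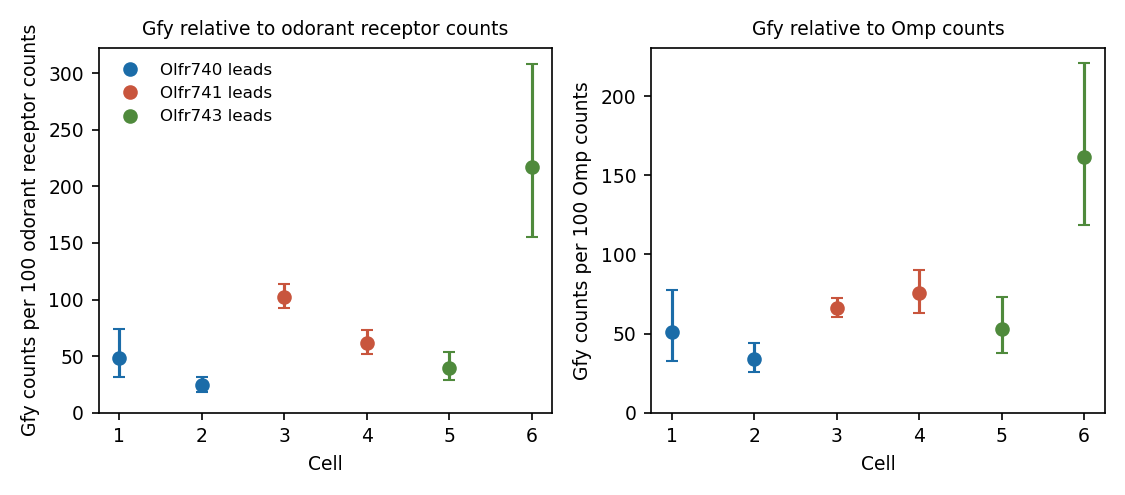
Gfy counts per 100 odorant receptor counts (left) and per 100 Omp counts (right) in cells 1 to 6; points are single cells, bars exact 95% intervals of the ratio, and colours the leading receptor. Cell 6 reaches 217 and 161, above the interval of every other cell in both panels.

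Gfy also differed between neurons with the same leading receptor. Cell 2 had 0.528 times the level of cell 1 (95% interval 0.349 to 0.814), cell 3 had 1.77 times that of cell 4 (1.52 to 2.07) and cell 5 had 0.267 times that of cell 6 (0.191 to 0.370). Each interval left out 1, so within each pair the gap was larger than counting error at this scaling. The gap between cells 2 and 1 did not hold under other scalings, with 2778 CPM in cell 2 and 2715 CPM in cell 1 under TMM, and 2832 CPM in cell 2 and 2275 CPM in cell 1 under DESeq2 size factors. In both other pairs the direction was the same under TMM, at 9059 CPM in cell 3 against 4373 CPM in cell 4, and 2608 CPM in cell 5 against 6125 CPM in cell 6. Relative to Omp the gap between cells 3 and 4 did not hold, with 66.1 Gfy counts per 100 Omp counts in cell 3 (60.3 to 72.5) and 75.4 in cell 4 (62.9 to 90.4).

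Rtp1 was counted in 5 cells. Cell 1 held 2 counts of it, or 232 CPM (28.1 to 839), cell 2 held 12, or 348 CPM (179.8 to 608), and cell 3 held 69, or 563 CPM (438 to 713). Cell 4 held 25, or 410.5 CPM (266 to 606), cell 5 held 5, or 222 CPM (72.1 to 518), and cell 6 held 0. Cell 3 read highest, and its interval overlapped those of cells 1, 2, 4 and 5. If cell 6 had the rate of all others pooled, 5.32 counts would be due there, and 4.08 when cell 3 is left out of that rate, a step chosen after the data were seen. Having no count, cell 6 may hold up to 256 CPM, above the levels of cells 1 and 5, so a difference from those cells was not detectable at this depth. Its Poisson upper limit, 315 CPM, also lay within the intervals of cells 2 and 4 and below that of cell 3.

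Rtp2 was counted in all 6 cells. Cell 1 held 4 counts, or 464 CPM (127 to 1189), cell 2 held 14, or 406 CPM (222 to 681), and cell 3 held 84, or 685 CPM (547 to 849). Cell 4 held 2, or 32.8 CPM (3.98 to 119), cell 5 held 10, or 444 CPM (213 to 816), and cell 6 held 12, or 1023 CPM (529 to 1788). Cell 4 lay below all the others, and its interval overlapped none of them. Against the 2 found, 37.8 counts would be due in cell 4 at the rate of all others pooled, or 31.5 without cell 3. Cell 3, with the same leading receptor, had 20.9 times the level of cell 4 (95% interval 5.60 to 175), while Rtp1 in cell 3 had 1.37 times that of cell 4 (0.857 to 2.26), an interval that includes 1. Cell 4 stayed lowest for Rtp2 under each of the 5 scalings, at 32.8 to 46.2 CPM. Cell 6 was the highest cell for Rtp2 by plain totals, but under TMM it was at 650.4 CPM and cell 3 at 995 CPM.

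The split of Rtp counts between the paralogs, a measure that uses no total, differed between cells. Rtp1 took 25 of 27 Rtp counts in cell 4 (92.6%, Clopper-Pearson 75.7% to 99.1%). In cell 6 it took 0 of 12, which allows a share of up to 25.0%. Cell 3 had 69 of 153 (45.1%, 37.1% to 53.3%), and cell 2 had 12 of 26 (46.2%, 26.6% to 66.6%). Cell 5 had 5 of 15 (33.3%, 11.8% to 61.6%), and cell 1 had 2 of 6 (33.3%, 4.33% to 77.7%). Cells 1, 2, 3 and 5 overlapped one another. The interval of cell 4 lay above those of cells 2, 3, 5 and 6 and overlapped that of cell 1, which rests on 6 counts. Cells 3 and 4 share a leading receptor, as do cells 5 and 6. The interval of cell 4 lay apart from that of its partner, cell 3. The share allowed in cell 6 overlapped the intervals of its partner, cell 5, and of cell 1, so no gap was shown there.

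**Figure D3:**
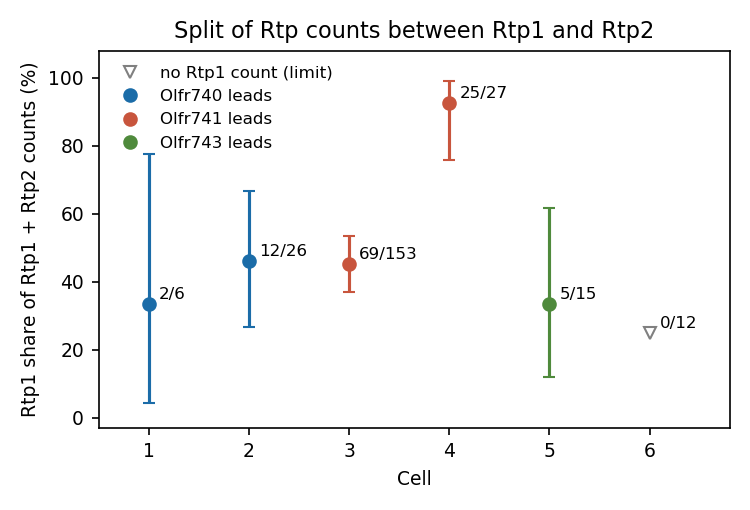
Share of Rtp1 in the summed counts of Rtp1 and Rtp2 (percent) in cells 1 to 6; points are single cells with counts written beside them, bars exact 95% Clopper-Pearson intervals, colours the leading receptor, and the open triangle the share that 0 of 12 counts allows. Cell 4 reaches 92.6% and cell 6 has 0 of 12, while the other cells lie between 33.3% and 46.2%.

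Summed over both paralogs, the gaps were smaller. The Rtp sum was 697 CPM in cell 1, 754 in cell 2, 1249 in cell 3 (1059 to 1463), 443 in cell 4 (292 to 645), 666 in cell 5 and 1023 in cell 6 (529 to 1788). Cell 4 lay below cell 3 beyond counting error, and every other pair with cell 4 overlapped. Relative to Omp, the sum ran from 8.70 counts per 100 Omp counts in cell 1 (3.08 to 19.9) to 17.1 in cell 6 (8.46 to 31.9), and the intervals of all 6 cells overlapped. For cell 4 it was 9.47 (6.14 to 14.1) and for cell 3 13.2 (11.1 to 15.7). Per 100 odorant receptor counts, the sum was 20.5 in cell 3 (17.1 to 24.5). That lay above cell 2 at 8.61 (5.53 to 12.9) and cell 4 at 7.74 (5.03 to 11.5), and every other pair overlapped.

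Markers of other cell types also moved between these libraries. Cell 4, where Rtp2 was low, had the highest sums of red blood cell markers (4 of 4 genes, 12610.4 CPM, against 171 to 4264 CPM in the other cells) and of immature neuron markers (4 of 5 genes, 2791 CPM, against 581 to 2132 CPM). Its mature markers summed to 13349 CPM (7 of 7 genes), against 13629 to 26820 CPM. Cell 6, where Gfy was high and Rtp1 had no count, had none of the 5 gland markers and 171 CPM of red blood cell markers (2 of 4 genes), and its share of mitochondrial counts was 12.3%, in a range of 4.40% to 14.4%. Gland markers summed to 19781 CPM in cell 2 (4 of 5 genes), where Gfy read lowest by plain totals. Mature markers of that cell summed to 15256 CPM. In cells 1, 3, 4 and 5 gland markers summed to 361 to 6850 CPM. Sustentacular cell markers ran from 85.3 CPM in cell 6 (1 of 5 genes) to 1450.2 CPM in cell 2 (4 of 5 genes), with 887 CPM in cell 4. The part of these in the results was not tested.

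The Reep genes together were low, with 50 counts over all cells, and their pooled counts were split between Reep1 (18), Reep3 (16), Reep5 (8) and Reep6 (8). Reep2 and Reep4 had none. The Reep sum reached 1109 CPM in cell 6 (13 counts, 590.4 to 1896), against 174 CPM in cell 2 (6 counts), 155 CPM in cell 3 (19 counts, 93.3 to 242), 148 CPM in cell 4 (9 counts, 67.6 to 281) and 133 CPM in cell 5 (3 counts, 27.5 to 389). Cell 1 had none, which allows 348 CPM. By plain totals, cell 6 lay above each of the others, whose upper limits reached 389 CPM in cells 2 to 5. Levels are divided by 1.57 in cell 6 and by 0.773 in cell 2 under TMM, and the gap was not tested on that scale. The gap rested largely on Reep3, with 8 of the 13 counts and the uncertain assignment given above. Without it, cell 6 was at 426 CPM (5 counts, 138 to 995), which overlapped cells 2, 3 and 5 and the level that cell 1 allows. By plain totals it still lay above cell 4, at 32.8 CPM (2 counts, 3.98 to 119).

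Reep1, which in humans is linked to hereditary spastic paraplegia, was at 58.0 CPM in cell 2 (2 counts), 57.1 CPM in cell 3 (7 counts, 23.0 to 118), 32.8 CPM in cell 4 (2 counts), 133 CPM in cell 5 (3 counts, 27.5 to 389) and 341 CPM in cell 6 (4 counts, 93.0 to 873), with none in cell 1. Neighbouring values overlapped throughout, and the interval of cell 6 also overlapped that of each other cell with a count. Reep3, known from human cell lines to keep the ER away from chromosomes during division, was at 682 CPM in cell 6 (8 counts, 295 to 1344), 115 CPM in cell 4 (7 counts, 46.2 to 237) and 29.0 CPM in cell 2 (1 count), with none in cells 1, 3 and 5. In cell 3, the deepest library, 14.2 counts would be due at the rate of all others pooled, and having none allows 24.5 CPM. By plain totals, immature neuron markers summed to 2132 CPM in cell 6 (3 of 5 genes) and 2791 CPM in cell 4 (4 of 5 genes). These were the cells with most Reep3, and the other cells had 581 to 1998 CPM. The interval of cell 6 (1380 to 3148) overlapped that of cell 5 (1457 to 2673), which had no Reep3 count. In cell 6 Gap43 (682 CPM) and Stmn1 (853 CPM) were at their highest. Stmn2 (597 CPM) was lower there than in cells 2 to 5, and Marcksl1 had no count. The part of these markers in the Reep3 result was not tested.

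**Figure D4:**
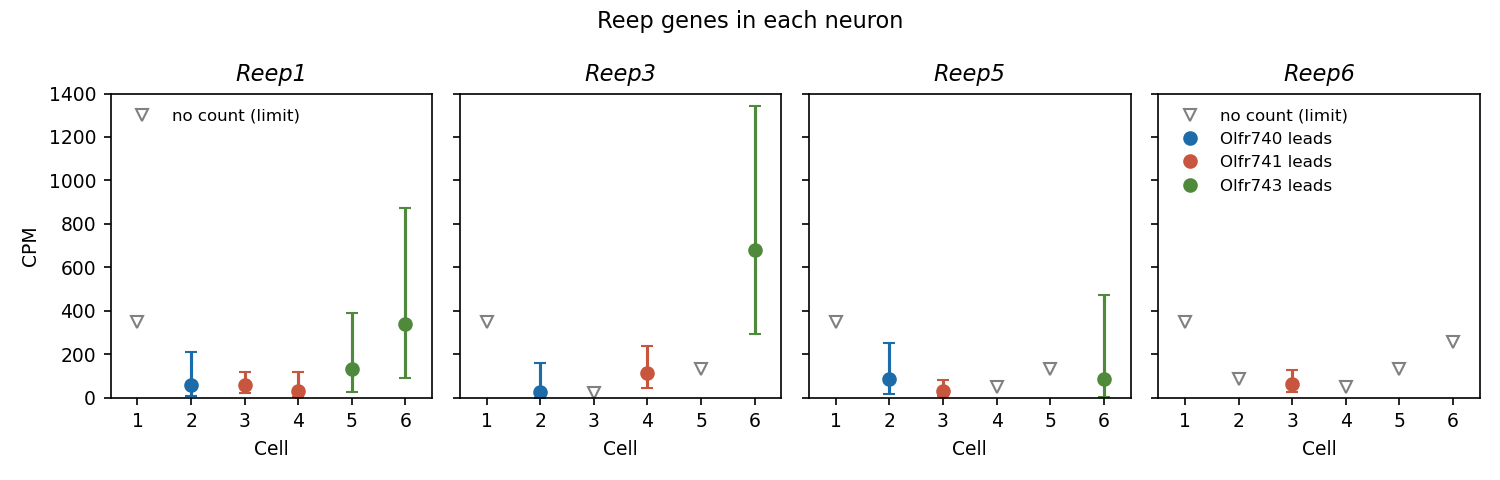
Levels of Reep1, Reep3, Reep5 and Reep6 (CPM, shared linear axis) in cells 1 to 6; filled points are cells with a count, with exact 95% Poisson intervals and colours for the leading receptor, and open triangles mark the level of 3 counts in cells without one. Reep3 reaches 682 CPM in cell 6, and Reep6 has counts in cell 3 alone, at 65.3 CPM.

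Reep5 and Reep6 form the other branch. Reep5, which shapes ER tubules in many tissues, was at 87.0 CPM in cell 2 (3 counts), 32.6 CPM in cell 3 (4 counts) and 85.3 CPM in cell 6 (1 count). These 8 counts cannot order the cells, since the levels that a count of 0 allows in cells 1 and 5 lie above every level measured. Reep6, known from mouse retina as a gene of rod photoreceptors, had 8 counts in cell 3 (65.3 CPM, 28.2 to 129) and none elsewhere. A count of 0 allows 49.3 CPM in cell 4 and more than 65.3 CPM in cells 1, 2, 5 and 6. An equal level in those 4 cells would not have been detectable. The interval for the ratio of cell 3 to cell 4 began at 0.848 and included 1, so no gap was shown there either.

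Reep2, which is linked to sweet taste receptor function in mouse taste cells, and Reep4, a relative of Reep3 with the same role in division, had no count in any of the 6 cells. Over all libraries together this allows up to 11.5 CPM for each, against 4831 CPM for Gfy, 483 CPM for Rtp2 (402 to 575), 433 CPM for Rtp1 (357 to 521) and 69.0 CPM for Reep1 (40.9 to 109). In single cells the limit was 24.5 CPM at best, in cell 3. The further Rtp genes Rtp3 and Rtp4 had no count either, with the same limits.

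Counting the members found, 7 of 9 had a count in some cell, beside 49.8% of the 21923 protein-coding genes, and 2 of 9 had counts in all 6 cells, beside 2.89% of them. By cell, 3 members had a count in cell 1 (background 11.4% of protein-coding genes), 6 in cell 2 (27.0%), 6 in cell 3 (36.1%), 5 in cell 4 (29.7%), 4 in cell 5 (23.9%) and 5 in cell 6 (8.36%). These numbers follow depth in part. When every cell was thinned to 8613 counts, the mean number of members found over 20 draws was 3.0 in cell 1, 4.1 in cell 2, 4.3 in cell 3, 3.0 in cell 4, 3.6 in cell 5 and 4.8 in cell 6. Thinned Rtp2 averaged 0.2 counts in cell 4, against 3.75 counts in cell 5 and 9.15 in cell 6.

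By mean level over cells, Gfy came first (4699 ± 2813 CPM, SD, n = 6), ahead of Rtp2 (509 ± 328 CPM) and Rtp1 (296 ± 192 CPM). Reads of this method come mainly from transcript ends, so CPM needs no length, but the order of these 3 was the same per kilobase of transcript, at 2541 CPM per kb for Gfy, 209.8 for Rtp2 and 94.9 for Rtp1. Within cells, Rtp2 read higher than Rtp1 in cells 1, 2, 3, 5 and 6 and lower in cell 4. In cells 1, 2, 3 and 5 their intervals overlapped, and the difference over cells was not tested. Reep3 (138 ± 270.5 CPM) and Reep1 (104 ± 124 CPM) followed and changed places per kilobase, with 25.4 for Reep3 and 26.4 for Reep1. Reep5 (34.2 CPM) and Reep6 (10.9 CPM) were the lowest with a count.

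The spread of counts was set against counting error by an index of dispersion, the chi-square of the counts against depth divided by its degrees of freedom, which is near 1 where counting error alone is at work. It was 40.8 for Gfy, 17.3 for Reep3, 8.71 for Rtp2, 3.2 for Reep1, 2.72 for Rtp1, 1.80 for Reep6 and 1.51 for Reep5. Over the 9760 genes averaging 10 CPM or more, the median was 1.74. The index grows with a gene's level, and among the 89 genes averaging 1000 CPM or more the coefficient of variation of Gfy, 59.9%, ranked 31st, beside a median of 47.7% and 28.2% for Omp. Among the 694 genes averaging 200 CPM or more, Gfy ranked 399th, below the median of 64.3%, and Rtp2 (64.5%) and Rtp1 (64.9%) lay close to it. Of these 694 genes, 94.5% had a lower index than Gfy, 74.6% a lower one than Rtp2 and 33.4% a lower one than Rtp1. Single cells moved these places among the 9760 genes. For Rtp2, 96.0% of genes had a lower index, and 61.4% without cell 4. For Reep1 the share was 75.2%, and 21.4% without cell 6. For Reep3 it was 98.6%, and 85.3% without cell 6.

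**Figure D5:**
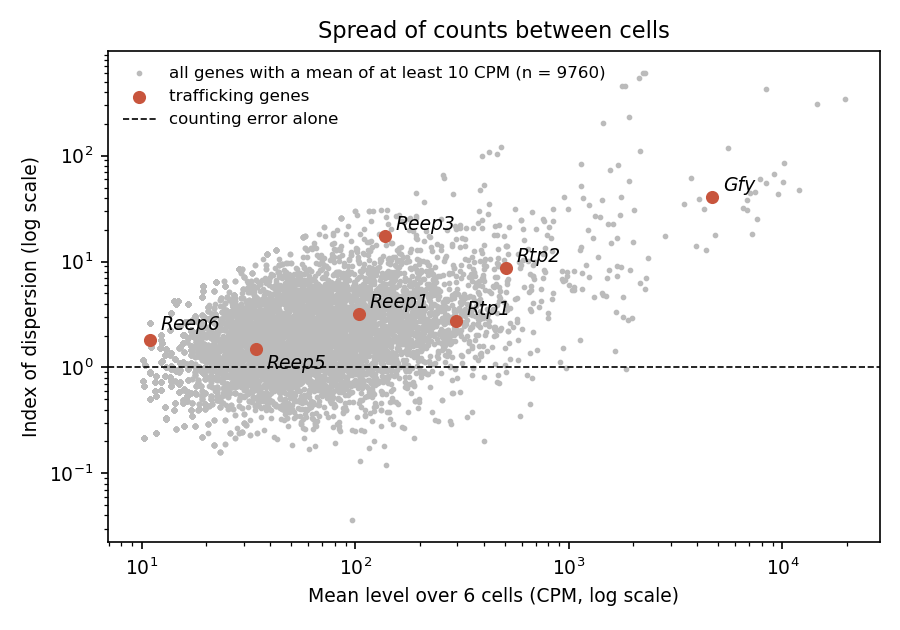
Index of dispersion of counts over 6 cells against mean level (CPM), both on log axes; grey points are the 9760 genes averaging 10 CPM or more, red points the 7 trafficking genes that passed that filter, and the dashed line marks the value 1. Gfy stands at 40.8 and Rtp2 at 8.71, while Reep5 and Reep6 lie close to the median of 1.74.

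Each cell was also set against the mean of the other 5, and a member was counted when it was past 2-fold with a pseudocount of 10 CPM. Of the 7 members that passed a mean of 10 CPM, 5 were past 2-fold higher in cell 6 (Rtp2, Gfy, Reep1, Reep3 and Reep5), where 17.2% of 9760 genes were. Another 2 were past it lower in cell 6, where 72.2% of genes were. In cell 4, 4 were lower (34.4% of genes) and 0 higher (25.3%). In cell 3, 2 were higher, Rtp1 and Reep6 (19.3%), and 1 was lower, Reep3 (29.9%). In cells 1, 2 and 5 there were 0, 1 and 0 higher (16.8%, 14.5% and 24.4%) and 4, 3 and 3 lower (69.9%, 44.6% and 44.7%). A member such as Reep6 passed the filter through the cell where it was high, so these counts are a description. With TMM scaling 2 members, not 5, were past 2-fold higher in cell 6. Gfy was 9638 CPM in cell 6 and 3712 CPM in the mean of the other cells, a log2 ratio of 1.37, and Rtp2 was 32.8 CPM in cell 4 and 605 CPM in the others, a log2 ratio of -3.84.

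Genes with a pattern over cells most like that of Gfy and Rtp2 were sought by Pearson's r of log2(CPM + 10) over the 6 cells, among 761 genes counted in all cells and averaging 100 CPM or more. Spearman's rho is given beside it. The cells differ in depth, which all genes share, so the values are a description. For Gfy these were Cidea (r = 0.989, rho = 1.0), a protein of lipid droplets, Stom (r = 0.981, rho = 1.0), the membrane protein stomatin, and Aplp1 (r = 0.941, rho = 0.886), a relative of the amyloid precursor protein. Stom had 3367, 1218, 4970, 2775, 1776 and 6738 CPM in cells 1 to 6 and so put the cells in the same order as Gfy. Cidea did too, on 2, 2, 66, 14, 3 and 16 counts. For Rtp2 they were Ebf3 (r = 0.982, rho = 0.943), a transcription factor of olfactory neurons, Cyc1 (r = 0.981, rho = 0.771), a subunit of respiratory complex III, and Gnptg (r = 0.943, rho = 0.886), a subunit of the enzyme that tags lysosomal proteins in the Golgi. Ebf3 had 9 counts in cell 4 (148 CPM), its lowest level, and 52 in cell 3 (424 CPM). Cyc1 and Gnptg had 2 counts each in cell 4, and at most 5 in cells 1, 2, 5 and 6.

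Other genes of the secretory route were present beside the members. The ER shaping list, with reticulons and atlastins, had 11 of 12 genes found and 3 in all cells, and its sum had a median of 2782 CPM. By plain totals the sum was 5714 CPM in cell 6 (4428 to 7257), on 3 of the 12 genes, against 2204 to 4218 CPM in the other cells. The interval of cell 6 overlapped that of cell 5 (3412 to 5156), and other scalings of this sum were not tested. The leading genes of the list were the reticulons Rtn1 (median 1573 CPM, 1084 to 4350 over cells) and Rtn3 (521 CPM, 261 to 1023). Among ER exit genes, the COPII coat with its cargo receptors, scaffolds and regulators, 13 of 15 were found and 1 in all cells, with a summed median of 835 CPM (512 to 1065). Sar1b, the GTPase that starts the coat, led with 184 CPM, followed by Mia3 with 131 CPM.

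ER folding genes were all found, 11 of 11, with a summed median of 1113 CPM. Hspa5 and Dnajb9, an ER chaperone and its partner, led with 271 and 238 CPM. Cell 6 had counts of 2 of them (512 CPM, 188 to 1114), and Hspa5 was among those at 0. The Golgi and vesicle traffic list had 11 of 12 found and 3 in all cells, with a summed median of 1464 CPM (1102 to 1776) and Rab6a (479 CPM) and Copa (194 CPM) in front. The BBSome list held genes of the coat that carries membrane proteins into and out of cilia, and Arl6, which is not a subunit of that coat. On this list 9 of 9 genes were found and 1 in all cells, at a summed median of 590.5 CPM (426 to 772). Bbs2 and Arl6 led it with 116 and 102 CPM. The 9 members had a summed median of 4441 CPM (3074 to 11770), most of it Gfy.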

How the data were processed

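Single neurons were profiled by CEL-Seq2, which primes at the poly(A) tail and adds a molecular identifier to each transcript. Per the labels, read 2 alone was aligned. Tools listed, per the submitters' processing notes, are CASAVA, HTSeq and Bowtie2 2.3.4 with build mm10, and their roles are not stated. The authors deposited raw counts for 55341 gene symbols in 6 columns, 1 per cell. Whether counts were collapsed by molecular identifier, the strand setting and the annotation are not given in these sources, so intervals cover counting error only and are too narrow if counts are reads.

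CPM values were computed from these counts over all genes of a cell (totals 8613 to 122546). Exact 95% intervals are Poisson for levels, Clopper-Pearson for shares and conditional binomial for ratios (scipy 1.17.1). A gene without a count is limited by 3 counts. The receptor counts sum 1421 Olfr and Taar genes. Positions, transcripts and coding sequences come from GENCODE M21 (GRCm38, the assembly mm10 names), in which all 55341 symbols were found, and 1-based. Promoter sequences are RefSeq's (GRCm38.p6), found for 3 of the 9 members. No p-value is given, because the labels define 1 group and so no comparison between groups.

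Besides the 9 members, the text names the 2 genes of highest median per list, the 3 most similar genes of each member counted in all cells, and Omp, leading receptors and markers. Overlapping and nearby genes, and Hspa5 at 0 in cell 6, were named after their values were seen. Members, lists, motifs and measures were chosen with earlier results of these data known. The dispersion index, the ratios and the similarity measure were tested on simulated data. Alternatives used edgeR 4.0.16 TMM sizes, DESeq2 1.42.0 size factors, other totals, thresholds and pseudocounts, thinning, and each cell left out.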

Additional observations from a re-analysis of the deposited data

Results flagged for a closer look

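Of 19 quantities compared over the 6 cells, 4 had a value far from the rest by Dixon's ratio of gap to range, at a limit that chance passes in about 1 of 20 groups. Reep3 was highest in cell 6 at 682 CPM (ratio 0.832), a value of 8 counts. The Reep genes summed were highest in cell 6 at 1109 CPM (0.843), of which Reep3 is 8 of 13 counts, so the pair is a single observation. Gfy per 100 Omp counts was highest in cell 6 at 161 (0.674). Reep6 was at 65.3 CPM in cell 3, the sole cell with counts of it. The ratio is 1.0 there by construction and says nothing about the other cells. Their depth could hide an equal level in 4 of 5, and the gap to cell 4 was within counting error. Of the 4 flagged values, 3 concern cell 6, which had 11725 counts in all.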

How the results depend on the processing

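Of 201 recomputed values, 90 of the main results and 85 of the others moved by less than the SD between cells (5 points for a percentage of genes, 0.1 for a similarity, the interval for a ratio), or by at most 1.5 times for counts, while 14 and 12 moved further. That SD is wide for sparse genes: leaving out single cells put the median of Reep3 at 0.0 to 29.0 CPM, against 14.5, and of Reep5 at 0.0 to 32.6 CPM, against 16.3. A median without a single cell falls on a middle value, so those checks could hardly move by an SD. Direction was checked for the ratios of cell 3 to cell 4 alone, and none of them reversed. The highest cell for Gfy and Rtp2 and the Gfy gap between cells 2 and 1, given above, did change with TMM or DESeq2 sizes. With at least 10 counts required, 1, 3, 3, 2, 2 and 2 members were found in cells 1 to 6, and with at least 3 counts, 2, 4, 6, 3, 4 and 4. The Reep sum of cell 6 was 426 CPM without Reep3, chosen after the data were seen, against 1109 CPM. Thinning left 3.0 in cell 4. Scaling by protein-coding genes gave a median Rtp sum of 1111 CPM, against 725 CPM as reported. With a pseudocount of 50 CPM, 9 member values over all cells were past 2-fold lower, against 17. With TMM sizes, 2 members were past 2-fold higher in cell 6, against 5, and the Gfy ratio of cell 3 to cell 4 was 2.07, against 1.77. The cause was not tested. Leaving out each cell in turn moved the median of the Rtp sum between 697 and 754 CPM, of Gfy between 3530.3 and 4064 CPM, of the Reep sum between 148 and 155 CPM, of all members between 4121 and 4760.2 CPM, and of the Rtp1 share between 33.3% and 45.1%. The percentage of genes with a lower index than Gfy ran from 99.5% to 99.7%, and than Rtp2 from 61.4% (without cell 4) to 97.5%. No paired analysis was possible because the cells form 1 group. Levels under 256 CPM in cell 6 and 348 CPM in cell 1 were not detectable for a gene without counts, which touches Rtp1 in cell 6 and the Reep genes.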
